A study of Homo sapiens with 8 samples.

Results

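To investigate which transcripts differed in PANC-1 cells after transfection with miR-30a-3p, 1 two-colour Agilent array was analysed. PANC-1 is an established human line from a pancreatic ductal carcinoma. RNA of PANC-1 cells transfected with miR-30a-3p by Lipofectamine RNAiMAX was labelled with Cy5, and RNA of mock PANC-1 cells, whose transfection the labels give as none, with Cy3. The miRNA dose, the time of harvest and whether the mock cells met the transfection reagent are not given in the sources used here for these cells. Of 58201 probes other than controls, 28895 (49.6%) were well above background in at least 1 channel and were taken as detected. Both channels passed for 24735 of them, Cy5 alone for 3995 and Cy3 alone for 165. Of the 43317 gene names on the array, 22063 had their brightest probe among the detected ones. There was 1 array, with no replicate and no dye swap, so no p-value or error between cultures could be had, and miRNA and dye cannot be told apart on this array alone. The series holds 8 such arrays, among them miR-30a-5p, miR-30c-5p and miR-30c-2-3p in the same line, each with mock in Cy3.

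A miRNA precursor is a hairpin from which 2 mature strands can be cut. The strand that is kept more often in the silencing complex is called the guide, and the other the passenger. In the complex, an Argonaute protein holds the miRNA, and bases 2 to 8 from its 5′ end (the seed) pair with complementary sites, most often in 3′ untranslated regions, after which the mRNA is repressed or degraded. MiR-30a-3p is the strand usually called the passenger of the miR-30a precursor, and miR-30a-5p is its guide.

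The mature sequences of the miRNAs on the PANC-1 arrays are shown because the search for sites rests on them, with the seed in capitals (RefSeq, GRCh38.p14; all were found in the table). The first 2 lines are the miRNAs in the table that carry the seed of miR-30a-3p, and the others were transfected on the other PANC-1 arrays.
miR-30a-3p: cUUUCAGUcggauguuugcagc
miR-30e-3p: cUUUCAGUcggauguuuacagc
miR-30a-5p: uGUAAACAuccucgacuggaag
miR-30c-5p: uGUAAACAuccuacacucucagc
miR-30c-2-3p: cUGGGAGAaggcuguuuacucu
MiR-30a-3p lies at chr6:71403554-71403575 on the minus strand, in the gene MIR30A. It shares its seed with miR-30e-3p, and its seed is not that of its own guide or of miR-30c-2-3p. The miR-30a-5p and miR-30c-5p seeds are the same.

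The mock RNA was compared with markers of the line. Of 8 PANC-1 markers, 7 were well above background in the mock channel, among them the keratins KRT7, KRT8, KRT18 and KRT19 and the mesenchymal filament VIM, with spot signals of up to 28860. Mesothelin (MSLN) was not. Markers of acinar, endocrine, colon, leukocyte and endothelial cells had mock signals between 18.0 and 68.5, and 9 of these 25 passed the background test. On this array 51.4% of spots were well above background in Cy5, against 45.8% to 48.6% on the other 7 arrays, and 45.1% were in Cy3. No spot was saturated. For 288 detected probes with 10 spots each, spots of a probe differed by an SD of 0.0648 (median, log2 ratio), which is a spread within 1 hybridisation.

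The ratio of Cy5 to Cy3 depended on signal intensity. With every ratio shifted by the array's median alone, the median log2 ratio of the detected probes went from 0.03 in the dimmest of 5 intensity classes of equal size through 0.12, 0.34 and 0.60 to 0.78 in the brightest. Loess, which subtracts the intensity trend, brought these medians to between 0.003 and 0.08. The side of 0 on which a bright probe lay could therefore depend on the scaling. Ratios that follow are after loess unless another scaling is named. After loess, the probes had a median log2 ratio of 0.02, an interquartile range of -0.09 to 0.14, and a range of -2.87 to 1.82. At least 2-fold lower were 286 probes (0.99%), of which 108 and 155 were in the 2 brightest classes.

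**Figure D1:**
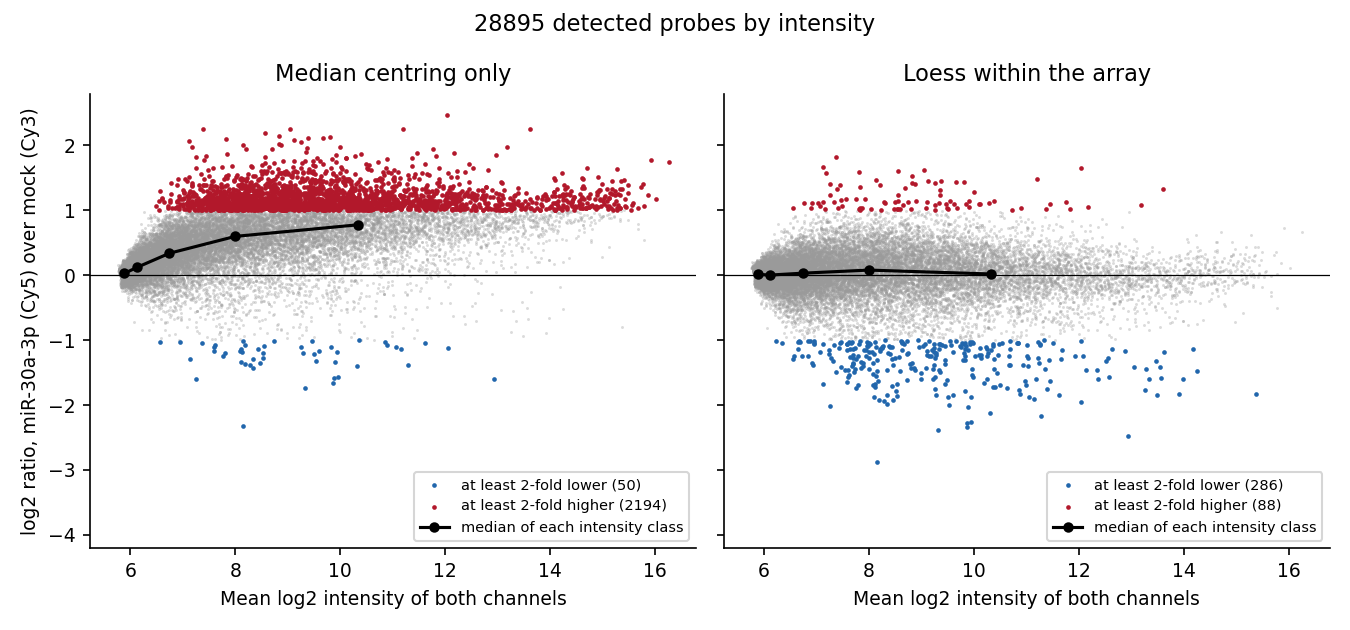
Each point is 1 of the 28895 detected probes, with the mean log2 intensity of both channels on the x axis and the log2 ratio of miR-30a-3p over mock on the y axis, after median centring (left) and after loess (right). Blue and red points are at least 2-fold lower and higher. The black line joins the medians of the 5 intensity classes, which climb to 0.78 on the left and stay at or under 0.08 on the right.

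To ask whether probes that hold a site for miR-30a-3p had lower ratios, the 60-base probe sequences were searched on the transcript strand. A match to bases 2 to 8 is ACTGAAA, a match to bases 2 to 7 followed by A is CTGAAAA, and a match with both is ACTGAAAA; each probe was counted in its longest class, and a probe with bases 2 to 7 alone was counted as a 6-base match. Of the detected probes, 434 (1.5%) held a site of 7 or 8 bases. The median log2 ratio was -0.15 for the 66 probes with the 8-base site, -0.05 for the 147 with a match to bases 2 to 8, -0.03 for the 221 with bases 2 to 7 and A, and -0.01 for the 519 with 6 bases. It was 0.02 for the 27942 probes with none. The order of the medians followed the length of the match.

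The difference lay mostly in the brighter probes. Between probes with and without a 7- or 8-base site it was -0.02, -0.04, -0.05, -0.23 and -0.22 from the dimmest to the brightest class. The offset of 50 in the background correction pulls ratios of dim probes towards 0. The small differences in the dim classes therefore cannot be read as a weaker response. Among the 11190 probes without a match in the 2 brightest classes, 43.9% had a ratio under 0, and 2.11% lay at -1 or under. With the 8-base site, 27 of 30 had a ratio under 0, with a median of -0.29, and 3 (10%) lay at -1 or under. With a match to bases 2 to 8, 42 of 64 had a ratio under 0, with a median of -0.21, and 12.5% lay at -1 or under. With bases 2 to 7 and A, 42 of 70 had a ratio under 0, with a median of -0.12, and 15.7% lay at -1 or under. The share at -1 or under thus did not follow the length of the match, as the medians did. No probe of these 3 classes was at least 2-fold higher, against 74 of the 11190 without a match. At a share this low, the absence from such small classes was not read as a difference. Some probes share a gene, and no test was made.

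**Figure D2:**
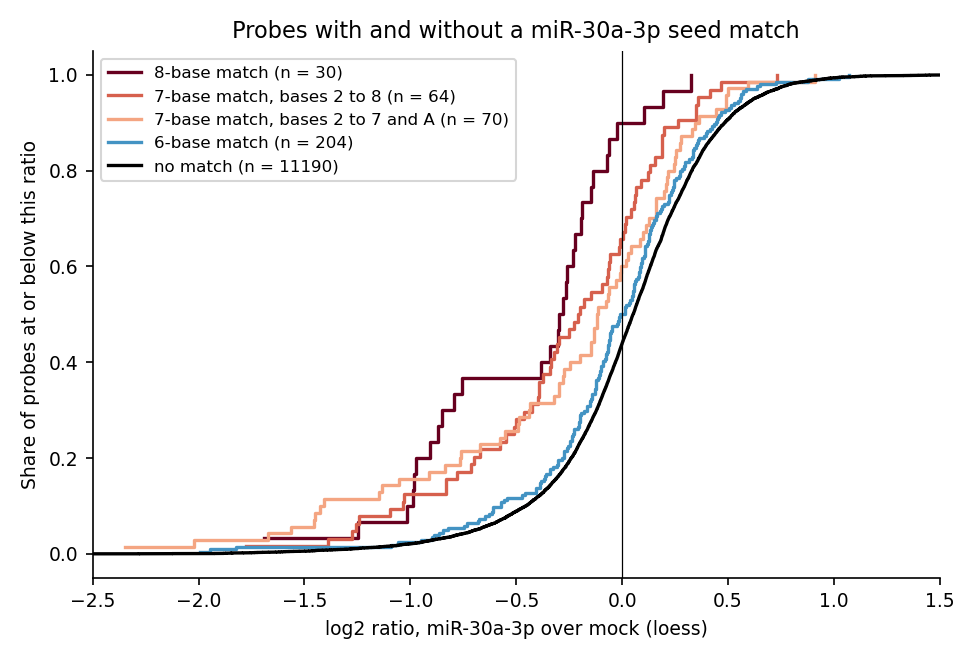
Cumulative share of probes (y axis) at or below each log2 ratio of miR-30a-3p over mock (x axis, loess) for the detected probes in the 2 brightest intensity classes, by the match they hold to the seed. The curve of the 8-base site (n = 30) lies left of the curve without a match (n = 11190) at most ratios and crosses 0 at 27 of 30 probes, against 43.9%.

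The same probes were read on the other PANC-1 arrays. In the 2 brightest classes, probes with the 8-base site for miR-30a-3p had medians of -0.14 (miR-30a-5p), -0.16 (miR-30c-5p) and -0.13 (miR-30c-2-3p), which were nearer to 0 than the -0.29 here but also below it. With a match to bases 2 to 8, the medians were -0.04, -0.03 and -0.10 there, against -0.21 here. The values that follow are over all detected probes, where the difference between probes with and without a site here was -0.062. In the other direction, probes with the 8-base site for miR-30a-5p had a median of 0.06 on the miR-30a-3p array and of -0.13 on their own. Sites on the opposite strand, in 439 probes, gave a difference of 0.006. Probes with a site had a median GC content of 41.7%, against 45% without. Within GC classes the difference was -0.04 under 35% GC (6 probes with a site), -0.09 from 35% to 45% (260) and -0.03 from 45% (168), and the part of base composition beyond this was not tested.

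At the level of genes, 20 of the 242 genes at least 2-fold lower (8.26%) had a 7- or 8-base site in their probe, against 1.45% of all 22063 detected genes and 0 of the 82 genes at least 2-fold higher. On the other 3 PANC-1 arrays, 0.467% to 3.64% of the lower genes and 1.98% to 4.69% of the higher genes held such a site. Lower there were 0.263% of all genes with miR-30a-5p, 0.445% for miR-30c-5p and 4.14% for miR-30c-2-3p. Of the 20, 11 had the site of bases 2 to 7 and A, 6 the site of bases 2 to 8, and 3 the 8-base site. A probe covers a small part of a transcript, so a gene without a site here can hold 1 elsewhere. Whether a window lies in a 3′ untranslated region was not analysed here. The following 30-base windows, with the site in capitals, are those of the lower genes described next.
OIP5: tggttggtCTGAAAAtagagttgggcttaa
STAU1: ctccattagggCTGAAAAgaatgacctacg
CHCHD1: gtattttcaatgACTGAAAtatagcttctg
ADA: tggcaacttgtACTGAAAAtctggtgctca
PLS3: ttatctttgtagtACTGAAAAtttgccgaa
CRNDE: tatttgattgccagttttACTGAAAAtgct

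OIP5, a subunit of the complex that prepares centromeres for the histone CENP-A, had a spot signal of 1590 in mock and 505 with miR-30a-3p. After loess this was a log2 ratio of -2.35, or 5.08-fold lower. Its window is at chr15:41601595-41601624 on the minus strand (hg19, as all positions that follow). On the other PANC-1 arrays its log2 ratio was -0.22 with miR-30a-5p, -0.08 with miR-30c-5p and 1.16 with miR-30c-2-3p, so the transcript was low with miR-30a-3p and high with the other passenger strand.

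STAU1 encodes Staufen, a protein that binds double-stranded RNA. Its signal was 1442 in mock and 579 with miR-30a-3p, a log2 ratio of -2.02, and its window is at chr20:47730266-47730295 on the minus strand. CHCHD1, a protein of the mitochondrial ribosome, went from 2549 to 1293 (-1.78), with its window at chr10:75542956-75542985 on the plus strand; it was chosen after its values were seen, as the lowest gene with a match to bases 2 to 8.

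The 8-base site was in the probes of 41 genes with a symbol, of which 32 were below 0, with a median of -0.26. Of all detected probes without a match, 44.3% were below 0. At least 2-fold lower were 3, against 1.1% of all detected genes. After median centring none of the 3 passed 2-fold, with PLS3 at -0.56 and CRNDE at -0.35. Adenosine deaminase, ADA, which breaks down adenosine, went from 2722 to 1475 (log2 ratio -1.69, and -0.93 after median centring; chr20:43248192-43248221, minus strand). ADA was at 1.01 with miR-30a-5p and 1.14 with miR-30c-5p, the reverse of its direction here, and at -1.25 with miR-30c-2-3p, the same direction. The actin-bundling protein PLS3 went from 1055 to 736 (-1.25; chrX:114884346-114884375, plus strand), and was at 0.50 and 0.55 with the guide strands and -0.98 with miR-30c-2-3p. The long noncoding RNA CRNDE went from 793 to 644 (-1.02; chr16:54952919-54952948, minus strand). The next 5 genes lay just short of 2-fold: the hypoxia-inducible factor EPAS1 at -0.99, HOXB4 at -0.98, YEATS4 at -0.97, ITPRIP at -0.90 and AKAP8 at -0.87.

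Of the other lower genes with a site, chosen here after their values were seen, IRAK2, a kinase below the interleukin-1 receptor, was at -1.67. UQCR11, a subunit of respiratory complex III, was at -1.56, and TFPI, the inhibitor of the tissue factor pathway, at -1.45. NFKBIE, an inhibitor of NF-kB, was at -1.09.

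To determine how many genes differed, each gene name was represented by its brightest probe, and a fixed size of 2-fold replaced a test. Of 22063 detected genes, 242 (1.1%) were at least 2-fold lower and 82 (0.372%) at least 2-fold higher with miR-30a-3p than in mock. Of these, 9 were at -2 or under and 8 at 1.5 or over. Of the lower genes, 241 were well above background in both channels, as were all 82 higher ones. Just inside the limit lay MET at -1.003 and CRTC1 at 1.001, and just outside lay PSIP1 at -0.999. Median centring gave 46 lower (0.208%) and 1946 higher genes (8.82%; a share of higher genes among the changed of 97.7%, against 25.3% after loess), and the scanner's own ratio gave 906 (4.11%) and 1330 (6.03%). The median of all genes shifted from 0.02 to 0.30 under median centring. All 242 were still below 0 and all 82 above 0 there, 46 and 82 still at least 2-fold, and relative to the shifted median 114 of the 242 were. Against loess, median centring moves nearly all but the dimmest probes up, and brighter probes by more. The 82 could therefore hardly drop out, and few of the 242 could cross 0, so these 2 counts do not measure stability.

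Among the lower genes, 85 had more than 1 detected probe, and in 78 every probe was below 0. Among the higher genes these numbers were 29 and 27. Every probe was at least 2-fold off in 17 and 2 of them.

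The lowest gene was SLC35F3, a member of a solute carrier family, with a signal of 590 in mock and 97.8 with miR-30a-3p, 7.32-fold lower after loess (log2 ratio -2.87). It was also low with the guide strands, at -1.78 with miR-30a-5p and -1.39 with miR-30c-5p, and was at 1.43 with miR-30c-2-3p. KDELC2 (POGLUT3), a glucosyltransferase of the endoplasmic reticulum, was likewise at -1.93 here, -1.63 with miR-30a-5p and -1.71 with miR-30c-5p. For these genes the ratio less that of the miR-30a-5p array, in which a dye effect common to both arrays cancels, was -1.09 and -0.30. The other 10 of the 12 lowest genes were between -1.57 and -2.55 on that scale.

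PLAU, the urokinase that turns plasminogen into plasmin, had a spot signal of 13342 in mock and 4555 with miR-30a-3p. It was 5.59-fold lower (-2.48), and -1.99 at its other probe. Its mock level was 1.04 higher (log2) than in the mock channels of the miR-30c arrays, and its ratio was -0.15 with miR-30a-5p, 0.49 with miR-30c-5p and -1.94 on the miR-30c-2-3p array. ADORA2B, an adenosine receptor, went from 1564 to 521 (-2.28). CD109, a membrane-anchored protein that binds TGF-beta, went from 1639 to 556 (-2.26). Both were nearer to 0 with the guide strands, at -0.02 to -0.62.

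UNG, the glycosylase that removes uracil from DNA, went from 3910 to 1542 (-2.16), and C15orf52 (CCDC9B) from 2000 to 768 (-2.12). Tropomyosin 4, TPM4, which lines actin filaments, went from 1115 to 445, and its 2 probes were at -1.995 and -2.38. The chaperonin subunit CCT6A went from 6067 to 2889 (-1.95). RP2, which acts on the small GTPase ARL3, went from 518 to 192 (-1.93), and was the only gene of the 12 that was above 0 on all 3 other PANC-1 arrays, at 0.63 to 0.92. No more than OIP5 and STAU1 of the 12 held a 7- or 8-base site in their probe.

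The highest gene was MPZL3, a membrane protein, with a signal of 40.7 in mock and 339 with miR-30a-3p (log2 ratio 1.82, 3.53-fold higher). Its other probe was at 0.16. The noncoding RNA LINC01447 went from 32.7 to 257 (1.67), and CYP26A1, the enzyme that breaks down retinoic acid, from 38.8 to 261 (1.57). These dim genes were the ones at which the scanner's ratio was farthest from loess, at 3.12, 3.29 and 2.93.

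MKNK2, a kinase that phosphorylates the cap-binding factor eIF4E, went from 1720 to 10121 (1.65), with its other probe at 0.71. It was at 1.01 with miR-30a-5p, 0.76 with miR-30c-5p and -1.88 with miR-30c-2-3p. PGM2L1, which makes glucose-1,6-bisphosphate, was at 1.61 here and between 1.15 and 1.18 on the other 3 arrays. PARD6B, a cell polarity protein, was at 1.45 here, 1.11 with miR-30a-5p and 0.81 with miR-30c-5p. Less the miR-30a-5p array, MKNK2, PGM2L1 and PARD6B were at 0.64, 0.43 and 0.35, under 2-fold. The alkaline phosphatase ALPPL2 (ALPG) was at 1.62, and at 0.80 on that scale. Its mock level was 1.90 lower (log2) than in the mock of the miR-30c arrays.

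The other higher genes were nearer to 0 with both guide strands than here. GRHL3, a transcription factor of epithelia, went from 74.1 to 445 (1.59). NUPR1, a stress-induced chromatin protein, went from 1023 to 5235 (1.48), and ARID5B, a DNA-binding protein, from 231 to 1140 (1.45). The deubiquitinase YOD1 went from 180 to 946 (1.54), and was at 1.53 with miR-30c-2-3p as well. The imprinted noncoding RNA H19 went from 389 to 1885 (1.44), with -0.87 and -1.10 on the miR-30c arrays. Its mock level was 0.94 lower than in their mock.

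**Figure D3:**
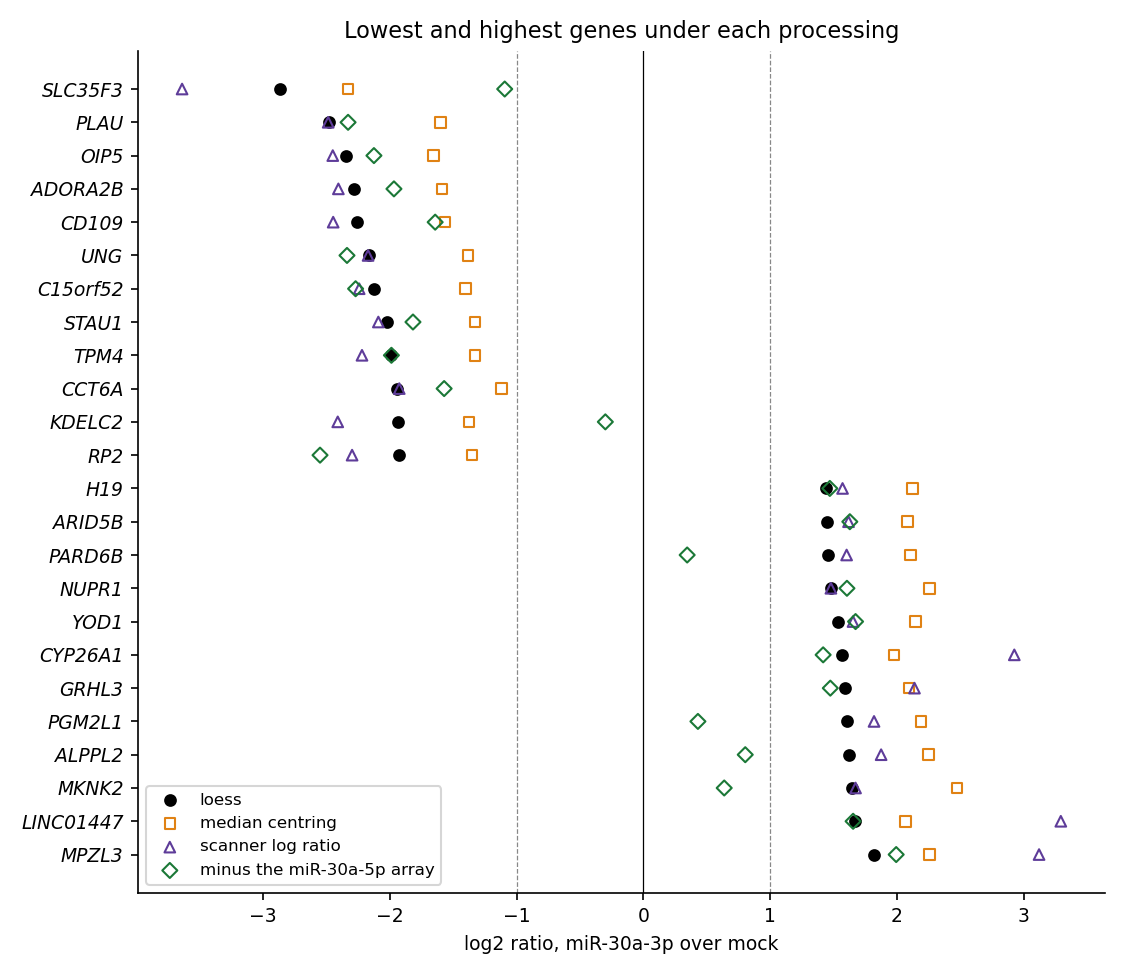
Log2 ratio of miR-30a-3p over mock (x axis) for the 12 lowest and 12 highest genes (y axis), 1 point per processing: loess (filled), median centring, the scanner's log ratio, and loess less the miR-30a-5p array. No gene changes side. With the miR-30a-5p array subtracted, KDELC2, PARD6B, PGM2L1, MKNK2 and ALPPL2 come inside the dashed 2-fold lines.

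**Figure D4:**
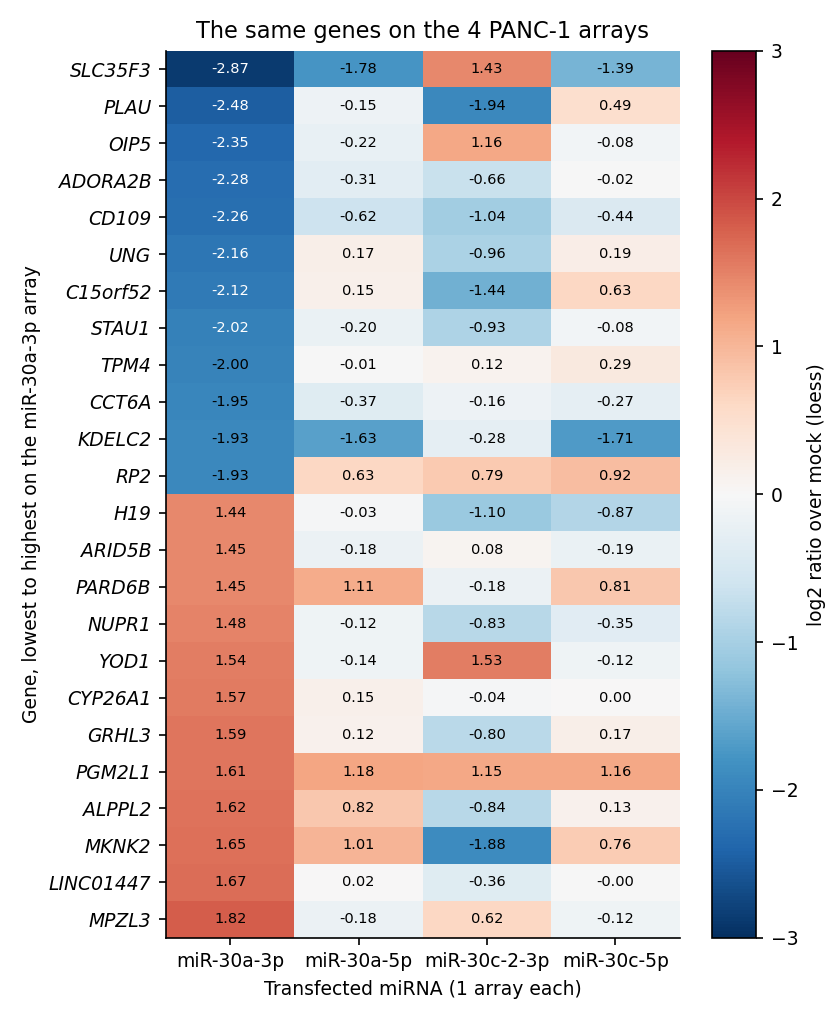
Log2 ratio over mock after loess (colour and printed value) of the same 24 genes, in rows from lowest to highest, on the 4 PANC-1 arrays in columns. SLC35F3 and KDELC2 are low and PGM2L1 is high on the guide strand arrays too, and OIP5 goes from -2.35 here to 1.16 with miR-30c-2-3p.

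The arrays of miR-30a-3p and miR-30a-5p appear to share their mock: between their Cy3 channels 0 of 19760 genes were at least 2-fold apart, with an SD of 0.0736. The values on both are therefore given side by side and not counted together. The mock of the miR-30c arrays was farther off, with 45 and 46 genes at least 2-fold apart. Of the 324 changed genes, 10 had a mock level at least 2-fold away from that of the miR-30c arrays. Over genes detected on both arrays, 51 of the 242 lower genes (21.1%) were also at least 2-fold lower on the miR-30c-2-3p array, which is 5.96% of the genes lower there. On the miR-30c-5p array, 7 (2.89%) were, which is 7.95% of the genes lower there. Of all genes detected on both arrays, 4.25% and 0.432% were lower there, which is the background of the 21.1% and the 2.89%. The background of the 5.96% and the 7.95% is the share of genes lower here, 1.1% of all detected genes.

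To describe groups of genes with known roles, 23 lists were read, each against the 1.1% of all genes lower and 0.372% higher. The median of a list is given less the median of all genes, since the latter shifts with the scaling. Values of single genes are given without this subtraction. Of all detected probes without a match to the seed, 44.3% had a ratio under 0, which is the background for counts of genes under 0.

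Of 15 detected integrins, the receptors that join cells to matrix, 13 had a ratio under 0, and 2 passed 2-fold. ITGB1, the beta subunit of many of them, went from 368 to 256 (-1.10), and ITGA6, a laminin receptor subunit, from 411 to 314 (-1.01). Among the 13, ITGA11, ITGB8, ITGB2 and ITGB3 were dim, with mock signals of 25.7 to 51.0. The list median was -0.46 relative to that of all genes, -0.48 after median centring and -1.07 by the scanner's ratio. On the arrays of the guide strands it was at -0.02 and 0.01. In the plasminogen activator system, 2 of 11 were lower, among them PLAU. The urokinase receptor PLAUR was at -0.51. Of 28 collagen and matrix genes, 11 had a ratio under 0, and the list median was 0.07 above that of all genes. COL13A1 (-1.39) alone was lower, and was also at -1.18 with miR-30a-5p.

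NF-kB targets had the highest number of lower genes of any list, 5 of 26, with none higher and 21 below 0. The inhibitor of apoptosis BIRC3 went from 3021 to 1445 (-1.87), and BIRC2, its paralog, from 1067 to 881 (-1.02). The early response gene IER3 went from 3638 to 2108, with its 2 probes at -1.63 and -1.31. The chemokine CCL2 went from 1564 to 1097 (-1.28). NFKBIE, described above, was also lower. After median centring BIRC3 was at -1.11, and the other lower genes were within 2-fold, from -0.84 (IER3) to -0.33 (BIRC2). With miR-30c-2-3p, BIRC3 was at -3.18 and CCL2 at -2.47, lower than here. IER3 (-0.77), BIRC2 (-0.74) and NFKBIE (-0.51) were nearer to 0 there. The canonical targets NFKBIA, at -0.18, TNFAIP3, at 0.17, and RELB, at -0.14, were within 2-fold. NFKBIA and RELB were at 0.60 and 0.64 after median centring. The list median was -0.41 relative to that of all genes (-0.20 after median centring, -0.69 by the scanner's ratio), -0.59 with miR-30c-2-3p, and 0.14 and 0.40 with the guide strands. The mock level of the list was 0.34 higher (log2, median) than in the mock of the miR-30c arrays, and its part in the result was not tested.

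Immediate early genes went both ways. PHLDA1 went from 425 to 152 (-1.92) and the AP-1 subunit FOSL1 from 803 to 467 (-1.46), while the transcription factors EGR1, from 137 to 539 (1.13), and ATF3, from 350 to 1688 (1.43), were higher. ATF3 was also higher with both miR-30c strands (1.84 and 1.54), and its 4 probes ranged from -0.03 to 1.43. Of 30 genes of the ATF4 and unfolded protein response, ATF3 was the only higher gene and the cystine transporter SLC7A11 the only lower 1 (-1.35). Below 2-fold, DDIT3 was at 0.88 and the asparagine synthetase ASNS at 0.79. The YAP and TGF-beta list held 2 lower genes, among them the YAP partner TEAD1 (-1.08). The 2 higher ones were tissue factor F3 (1.12) and the receptor TGFBR2 (1.05, its other probe at 0.10). TGFBR2 was also at 0.81 with miR-30a-5p, 1.04 with miR-30c-5p and 1.52 with miR-30c-2-3p. F3 was at 0.73 with miR-30a-5p, 0.91 with miR-30c-5p and -0.21 with miR-30c-2-3p. Less the miR-30a-5p array, TGFBR2 was at 0.24 and F3 at 0.39.

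In growth factor signalling, 2 of 39 genes were lower and 1, MKNK2, was higher. The GTPase NRAS went from 245 to 107, with its probes at -1.54 and -1.01, and was at 0.23 to 0.36 on the other 3 arrays. Its relative HRAS was at 0.19. The receptor MET went from 2705 to 2416 (-1.003 after loess, -0.22 after median centring). IGF1R was at 0.90.

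Of the 16 epithelial genes, the keratins KRT18 (19346 to 17686, -1.14) and KRT19 (13528 to 11777, -1.18) were lower. Both lay in the brightest intensity class, and after median centring they were at -0.19 and -0.26. KRT18 was at 1.09 with miR-30a-5p and 1.25 with miR-30c-5p. None of 13 mesenchymal genes passed 2-fold. VIM was at -0.72 here, but at 0.28 after median centring, so its side of 0 turned with the scaling. After median centring the median of all genes was 0.30 and that of probes in the brightest class 0.78, both above VIM. With the guide strands VIM was at -1.65 and -1.63.

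The list of miRNA machinery had a median 0.33 above that of all genes, the highest of the 23 after loess, with 1 of 25 genes higher and none lower. After median centring it was 0.47, below ribosomal proteins (0.74), oxidative phosphorylation (0.67), the ATF4 list (0.58), lysosome and autophagy (0.50) and the BCL2 family (0.475). It was 0.31 on the miR-30c-2-3p array, and 0.0002 and 0.05 with the guide strands. TNRC6A, the Argonaute partner that recruits deadenylases, went from 293 to 1299 (1.31), and was at -0.11 to 0.23 on the other arrays. Among the Argonautes, AGO1 was at 0.60 and AGO2 at 0.04. DICER1 was at -0.51 (0.04 after median centring) and LIN28B at 0.93. In the BCL2 family, BMF was higher (1.11, its other probe at 0.05), with BCL2L11 at 0.96 (its 3 probes from -0.14 to 0.96), both promoters of apoptosis.

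Of 34 replication-dependent histones, 25 were below 0 and the linker histone HIST1H1C alone was higher, from 2321 to 9025 (1.05). The list median was -0.41 relative to that of all genes (-0.16 after median centring), but it was lower still on the other 3 arrays, at -0.60, -0.52 and -0.72, and was 0.13 with the miR-30a-5p array subtracted. In mitosis and centromere genes OIP5 alone passed 2-fold among 53. The mitosis median relative to that of all genes was 0.02 here and depended on the scaling, at 0.44 after median centring and -0.015 by the scanner's ratio. It was -0.41 and -0.39 with the guide strands and 0.23 with miR-30c-2-3p.

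In metabolism, ANGPTL4, an inhibitor of lipoprotein lipase, went from 1567 to 830 (-1.67), against 2.02 with miR-30a-5p and 2.36 with miR-30c-5p. The peptide hormone ADM went from 5604 to 27910 (1.33). It was at 0.72 with miR-30a-5p, 1.02 with miR-30c-5p and 0.66 with miR-30c-2-3p. The sterol enzyme LSS was at -1.12, with its other probe at 0.24. No p53 target among 24, no gene of the oxidative phosphorylation list among 45, which does not hold UQCR11, and no cytosolic ribosomal protein gene among 41 passed 2-fold. Of 32 lysosome and autophagy genes, GABARAPL1 was higher (1.15), as on both miR-30c arrays (1.47 and 1.04).

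Of 36 detected interferon-stimulated genes, 2 were lower, IFIT2 (-1.24) and ISG20 (-1.05), and none was higher. Of 15 antigen presentation genes, HLA-B was lower, from 2761 to 2039, with its 3 probes at -0.70 to -1.27. HLA genes are near-identical in parts, so their probes can share signal.

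**Figure D5:**
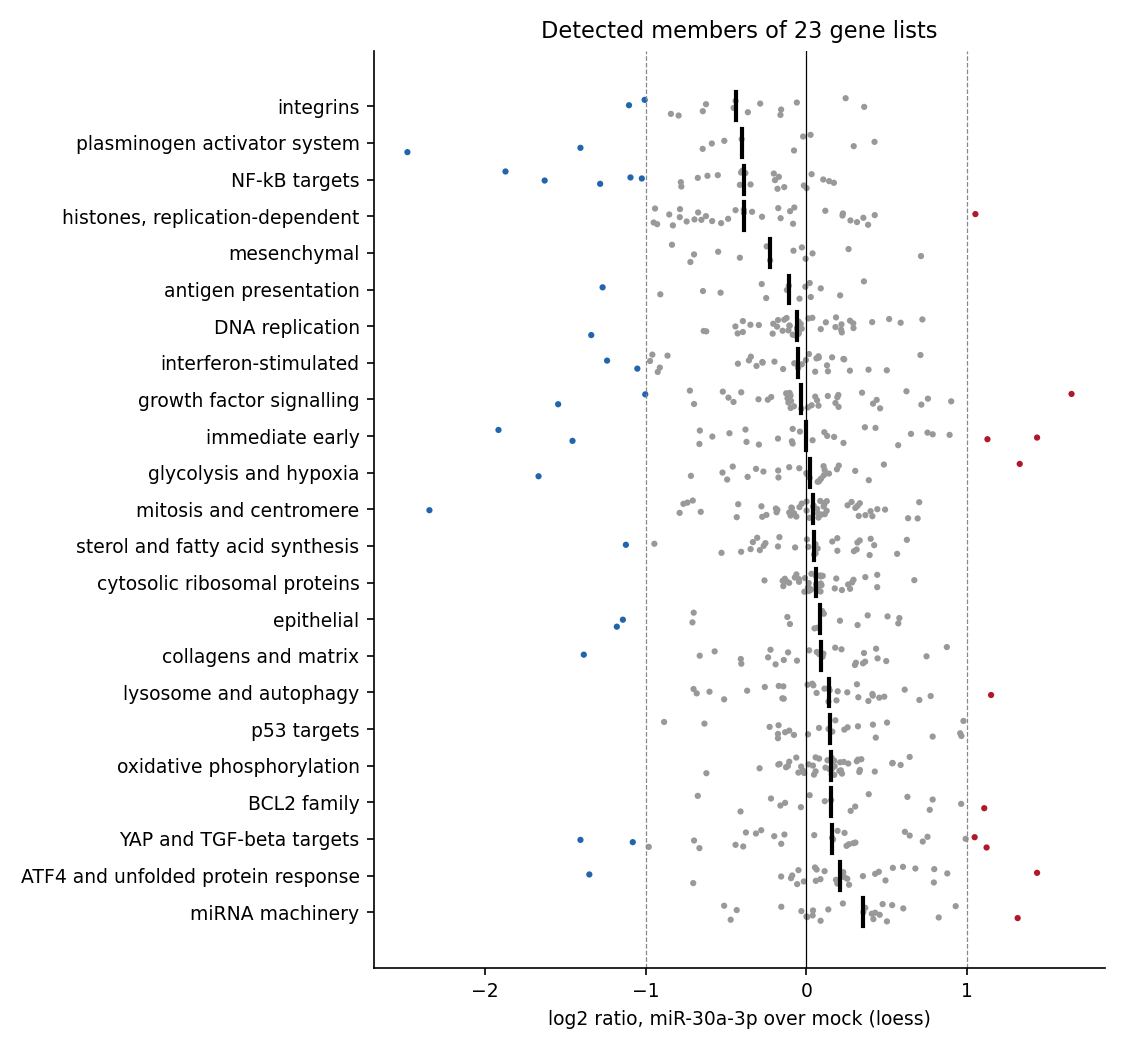
Log2 ratio of miR-30a-3p over mock after loess (x axis) of every detected gene of the 23 lists (y axis), 1 point per gene and a black bar at each list's median. Blue and red points are at least 2-fold lower and higher. Integrins, the plasminogen activator system, NF-kB targets and histones have the lowest medians, and the miRNA machinery the highest.

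For genes detected in 1 channel only, a bound on the fold was also worked out. Their ratios are included in the counts and list medians above, so C1QTNF5 (-1.01) is among the 242 lower genes. Of 48 named genes in mock only and 1287 with miR-30a-3p only, none had a bound of 2-fold. The bounds were taken on levels with the offset of 50, which holds dim genes close together, so this count cannot be read as a lack of difference. The highest bounds were C1QTNF5, at least 1.89-fold lower, and FOXI1, at least 1.66-fold higher.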

How the data were processed

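Per the file headers, the deposited scanner output (Agilent Feature Extraction 11.5.1.1, probe positions on hg19) holds each spot's mean intensity and local median background in both channels. It also holds the software's log10 ratio, which the authors' table repeats without change, and calls of outliers, saturation and signal above background. The 8 arrays shared 1 slide and 1 scan. Here, intensities were background-corrected (normexp, offset 50) and normalised by loess within the array in limma 3.58.1 (R 4.3.3), outlier spots were left out, spots of a probe were averaged, and a gene was given its brightest probe over the 8 arrays. Mock channels were compared on levels quantile-normalised by mean signal across arrays. Spot signals in the report are raw means. The steps were tested on simulated data. Tables were made in Python 3.11.15 with pandas 2.3.3.

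A gene counted as changed at a log2 ratio at least 1 from 0. Named genes were the 12 lowest and 12 highest with a symbol, detected in both channels and with other probes going the same way, list members past 2-fold and up to 4 of each list, the 8 lowest with an 8-base site, and 3 bounds per direction. Of 43317 gene names, 23542 matched a current symbol, given in brackets where it differs. Some genes are not reported here. Members and lists were chosen with earlier results of these data known. Alternatives were no background correction, an offset of 1, median centring, the scanner's ratio, subtraction of the miR-30a-5p array, detection in both channels, no filter on dim probes, and the median over a gene's probes. The offset pulls ratios of dim probes towards 0.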

Additional observations from a re-analysis of the deposited data

How the results depend on the processing

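No paired analysis was possible because each miRNA was on 1 array. The number of arrays limits every value, and dim probes, near the background, allow no fold to be read. Genes at least 2-fold lower numbered 242, and 410 without background correction, 640 with an offset of 1, 46 with median centring, 906 by the scanner's ratio and 399 less the miR-30a-5p array. Genes at least 2-fold higher numbered 82, and 160, 507, 1946, 1330 and 226 in the same order. Detection in both channels, no filter and the median over probes kept both counts within 1.5 times. Of the called genes, 241 and 82 already passed in both channels, and the offset keeps ratios of probes at background near 0. The first 2 of these settings could therefore hardly change the counts. The difference between probes with and without a site, -0.062, was -0.103 without background correction, -0.172 with an offset of 1, -0.145 with median centring, -0.198 by the scanner's ratio, -0.055 less the miR-30a-5p array, -0.074 with both channels, -0.0135 without a filter, where most probes are at background, and -0.087 for bases 2 to 8 only. Between mock channels of different PANC-1 precursors the median number of genes 2-fold apart was 43.5, and 90.5 without background correction. Of 161 comparisons of a list's median with all genes, 21 changed sign, in 12 lists. In 14 of them the median after loess was no farther than 0.063 from that of all genes. The other 7 were antigen presentation (0.36) and DNA replication (0.28) with median centring, and, less the miR-30a-5p array, collagens and matrix (-0.29), DNA replication (0.068), p53 targets (-0.038), YAP and TGF-beta targets (-0.18) and histones (0.13). The cause of these shifts was not tested. Of 168 comparisons of the 24 lowest and highest genes, none changed sign. These genes were chosen as the extremes after loess, in both channels and with other probes going the same way. Under detection in both channels and the median over probes, their sign was therefore fixed by the choice. The count does not measure stability.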

Other observations

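Gene families outside the lists were read after their values were seen, so their counts are a description. Of all detected genes, 1.1% were at least 2-fold lower and 0.372% at least 2-fold higher. Of all detected probes without a match to the seed, 44.3% had a ratio under 0. Metallothioneins, small proteins that bind zinc and copper, lay low together: 11 were detected, each with a ratio under 0, and 7 of them lay at -1 or under. MT2A had a signal of 55024 in mock and 32885 with miR-30a-3p (log2 ratio -1.83). MT1L was at -1.83, MT1E at -1.77 (its 3 probes from -1.77 to -0.46), MT1HL1 at -1.61, MT1M at -1.60, MT1A at -1.59 and MT1B at -1.59. MT1X was at -0.64, and MT1F and MT3 at -0.14 and -0.02 (0.21 and 0.58 after median centring). After median centring the 7 lay between -0.65 and -0.90. With miR-30c-2-3p they were at -0.92 to -1.33, and with the guide strands at -0.12 to 0.23. Their sequences are near-identical, so the probes can share signal and the 7 values cannot be read as 7 separate transcripts.

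Of 11 detected chaperonin genes, 3 were lower: CCT6A (-1.95), CCT4 (-1.41, its other probe at -1.28) and the mitochondrial HSPE1 (-1.48, its other probe at -1.45). CCT6A was at -1.12 after median centring. The other subunits of the cytosolic ring were nearer to 0, with CCT7 at 0.05, CCT8 at 0.04, CCT3 at -0.09 and CCT2 at -0.30 (0.79 and 0.62 after median centring), and HSPD1, the partner of HSPE1, was at 0.36.

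Among 15 detected receptors and co-receptors of the Wnt pathway, FZD4 (174 to 798, 1.34), FZD5 (66.6 to 285, 1.16) and LGR4 (453 to 1713, 1.09) were higher and ROR1 (199 to 86.0, -1.48, its 3 probes up to -0.21) was lower. FZD4 and FZD5 were at 0.50 to 0.57 with the guide strands.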
